A study of Caenorhabditis elegans with 2 samples.

Results

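Small nuclear RNA (snRNA) genes other than the spliced leaders were examined for binding of ELT-3 in Caenorhabditis elegans L1 larvae, the earliest larval stage. They are the genes of biotype snRNA in the Ensembl annotation of WBcel235 (ce11) whose symbol does not begin with sls-, the prefix of the spliced leader genes. This gave 99 of 46890 annotated nuclear genes, and each was searched over its span and 250 bp on either side. ELT-3 occupancy was mapped by chromatin immunoprecipitation and sequencing (ChIP-seq) in 1 group of 2 biological replicates, whole mixed-sex larvae of strain OP75. The strain is written unc-119(ed3) III; wgIs75 and makes ELT-3 fused at its C-terminus to GFP-FLAG from the wgIs75 transgene, so that both replicates share the unc-119 mutation and the transgene. Chromatin was sheared by sonication, and the labels name elt-3 as the antibody's target without saying whether the antibody recognised the protein or its tag. The labels refer to a control experiment, which was not analysed here, so control signal at these genes was not compared. There was no second condition, strain or stage.

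The snRNAs are the short, non-coding RNA components of the spliceosome, where they recognise splice sites and the branch point and form its catalytic core. In animals most are made by RNA polymerase II and U6 by RNA polymerase III. Both kinds of gene have a proximal sequence element upstream of the start, bound by the snRNA activating complex (SNAPc), and a TATA box beside it directs U6 to polymerase III. SmY RNAs are small nuclear RNAs of nematodes that associate with trans-splicing, the joining of a spliced leader to the 5′ end of an mRNA. ELT-3 is a GATA-type zinc finger factor of the worm epidermis, and GATA factors typically bind the letters WGATAR, where W stands for A or T and R for a purine, whereas snRNAs are needed in every cell.

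Of the 99 genes, 8 had a summit of the authors' thresholded peak list, the position of highest signal within a peak. This is 8.08% (95% Wilson interval 4.15% to 15.1%). Of all genes but the piRNA genes, which are very short and clustered, 3.31% had such a summit within 250 bp of the gene span, and of all genes 2.31%. The 8 genes were C52E4.8, F32B5.9, sup-6, F38E11.10, W05B2.8, F54D8.7, M163.13 and H27M09.6. Their summits lay at a median of 34 bp upstream of the annotated gene start, from 52 bp upstream to 5 bp inside the gene. In none of the 8 was WGATAR found within 50 bp of the summit, against 634 of 1249 (50.8%) of the other thresholded peaks outside snRNA and spliced leader genes.

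The genes with peaks belong to several kinds of snRNA. The annotation names no U class, so genes were grouped into families at 70% sequence identity and read for letters that are conserved in known spliceosomal RNAs. W05B2.8, III:10989679-10989780 on the plus strand, has ACAGAGA, the box by which U6 pairs with the 5′ splice site. F38E11.10, IV:9444642-9444763 on the plus strand, has CTTTTAC, letters of the loop by which U5 holds exon ends. The minus-strand gene sup-6, II:12944803-12944967, has ACTTACCT near its start, the stretch by which U1 pairs with the 5′ splice site. Its sequence is shown with those letters in capitals, 5′ to 3′ on the gene's strand, as read from the RefSeq sequence of ce11.
sup-6: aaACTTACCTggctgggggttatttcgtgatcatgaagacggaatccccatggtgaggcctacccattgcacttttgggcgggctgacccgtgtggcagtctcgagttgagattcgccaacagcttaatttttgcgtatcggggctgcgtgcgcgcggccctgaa

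The 80 bases, also from RefSeq, before the start of the 6 genes with thresholded peaks on chromosomes II to X show what the start regions share. Summits are not marked, and that of sup-6, 5 bp inside the gene, lies outside its stretch. The bases are given 5′ to 3′ on the gene's strand and end at the base before the annotated start. Capitals mark matches to GCGNAANCC (N is any base), ATGTC and TATAA, letters chosen after these sequences were seen.
C52E4.8, V:11980038-11980117, plus strand: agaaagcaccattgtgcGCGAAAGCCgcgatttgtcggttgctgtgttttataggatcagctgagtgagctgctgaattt
sup-6, II:12944968-12945047, minus strand: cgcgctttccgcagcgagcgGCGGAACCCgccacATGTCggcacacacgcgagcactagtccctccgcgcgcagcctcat
F38E11.10, IV:9444562-9444641, plus strand: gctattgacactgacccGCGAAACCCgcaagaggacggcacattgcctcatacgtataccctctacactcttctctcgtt
W05B2.8, III:10989599-10989678, plus strand: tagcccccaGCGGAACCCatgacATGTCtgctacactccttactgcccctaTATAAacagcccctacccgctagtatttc
F54D8.7, III:5080899-5080978, minus strand: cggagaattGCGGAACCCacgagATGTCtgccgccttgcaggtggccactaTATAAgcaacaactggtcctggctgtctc
M163.13, X:14476787-14476866, plus strand: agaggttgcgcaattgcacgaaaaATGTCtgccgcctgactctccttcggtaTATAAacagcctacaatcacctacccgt

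GCGNAANCC stood in 5 of these 6 stretches, and TATAA in 3. Next to them are the same stretches of 5 genes that had no pooled summit within 250 bp, each the most similar RNA of the same family to a gene with a thresholded peak among those whose upstream sequence is unique in the genome. Capitals are as before. F38E11.11, T11F9.15, Y17G9A.85 and Y17G9A.90 encode RNAs identical (100%) to those of F38E11.10, C52E4.8, F54D8.7 and W05B2.8, and F40G12.13 is 97.6% identical to sup-6.
T11F9.15, V:11478068-11478147, plus strand: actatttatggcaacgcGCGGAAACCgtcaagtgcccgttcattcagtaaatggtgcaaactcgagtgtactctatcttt
F40G12.13, V:14267463-14267542, plus strand: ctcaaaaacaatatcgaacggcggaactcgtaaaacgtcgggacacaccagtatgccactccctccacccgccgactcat
F38E11.11, IV:9464639-9464718, minus strand: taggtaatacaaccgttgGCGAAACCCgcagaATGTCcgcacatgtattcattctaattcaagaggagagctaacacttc
Y17G9A.90, IV:4866731-4866810, plus strand: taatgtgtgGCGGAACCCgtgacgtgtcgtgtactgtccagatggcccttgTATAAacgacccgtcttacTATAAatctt
Y17G9A.85, IV:4864736-4864815, minus strand: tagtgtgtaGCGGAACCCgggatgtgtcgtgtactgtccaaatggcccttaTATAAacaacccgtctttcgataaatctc

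The strongest peak at an snRNA gene was that of C52E4.8 (WBGene00014291, V:11980118-11980261, plus strand), a gene of 144 bp in a family of 5. Its summit at 11980080 had a pooled signal of 112.9 in the authors' unit and ranked 70 of the 1262 thresholded peaks. The signal was 50.8 in replicate 1, rank 136 of its 25325 listed peaks, and 57.1 in replicate 2, rank 60 of 26500. It was thus high in both replicates, and the 3 summits lay 45, 41 and 38 bp upstream of the start in replicate 1, replicate 2 and the pooled list. The same peak lies 357 bp upstream of a transcript start of snr-4, which encodes an Sm protein of the ring that most spliceosomal snRNAs carry. The peak cannot be assigned to one of these 2 genes from its position.

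F32B5.9 (I:2688947-2689069, plus strand), one of the genes with the U5 letters, followed with a pooled signal of 99.6, rank 111. Replicate 1 gave 46.2, rank 211, and replicate 2 gave 52.9, rank 78. It was again high in both, with summits 31 and 33 bp upstream of the start. The gene lies in an intron of cpz-1 on the opposite strand, and the summit was 32 bp upstream of its start in the pooled list. F38E11.10 (WBGene00014366, IV), the other gene with the U5 letters, had a pooled signal of 60.5, rank 510. Its signal was 28.1 in replicate 1 (rank 849) and 31.2 in replicate 2 (rank 459), with summits 40 and 28 bp upstream. The RNAs of F38E11.10 and F32B5.9 are 89.4% identical when aligned with gaps. Their 100 bp upstream share 31% of bases at the same position, counted without gaps, so the 2 percentages are unlike measures. GCGNAANCC begins 63 bp upstream at F38E11.10 and 60 bp upstream at F32B5.9, so it is out of step in that count.

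Of the 2 genes with the U1 letters, sup-6 had a pooled signal of 73.9, rank 296, and H27M09.6 (I:6847137-6847303, minus strand) had 43.4, rank 1231. For sup-6 replicate 1 gave 48.7, rank 164, with a summit 54 bp upstream, and replicate 2 gave 30.9, rank 471, with a summit 7 bp inside the gene. Both ranks were within the strongest 1262 of their lists and the position was not shared, with 61 bp between the 2 summits. H27M09.6 differed in strength: replicate 1 gave 12.3, rank 11782, and replicate 2 gave 28.2, rank 597. Its pooled summit 3 bp upstream of the start also lies in the promoter windows of H27M09.5 and syp-4, the latter a protein of the synaptonemal complex, with the nearest protein-coding start 205 bp away. A promoter window here covers the 1000 bp before a transcript start and the 250 bp after it. H27M09.6 and sup-6 were the only genes of the 8 with replicate summits more than 20 bp apart.

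The 2 genes with the U6 letters, W05B2.8 (WBGene00014543) and F54D8.7 (III:5080798-5080898, minus strand), had nearly equal pooled signals of 53.9 and 52.8, ranks 712 and 755. W05B2.8 had 34.0 in replicate 1, rank 530, and 21.3 in replicate 2, rank 1218. F54D8.7 had the opposite order, 19.3 in replicate 1, rank 2352, and 34.6 in replicate 2, rank 335. Their pooled summits lay 35 and 34 bp upstream of the start, and replicate summits between 26 and 37 bp upstream. The 2 RNAs are 99.0% identical when aligned with gaps, while their 100 bp upstream, compared without gaps, match at 50% of positions. M163.13 (X:14476867-14476946, plus strand), a gene of 80 bp with no relative at 70% identity, had a pooled signal of 46.7, rank 1029. It gave 19.8 in replicate 1, rank 2193, and 23.9 in replicate 2, rank 925. Its summits were 51 and 71 bp upstream, the pooled summit was the farthest from the start among the 8, and the nearest protein-coding start was 2563 bp away.

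**Figure D1:**
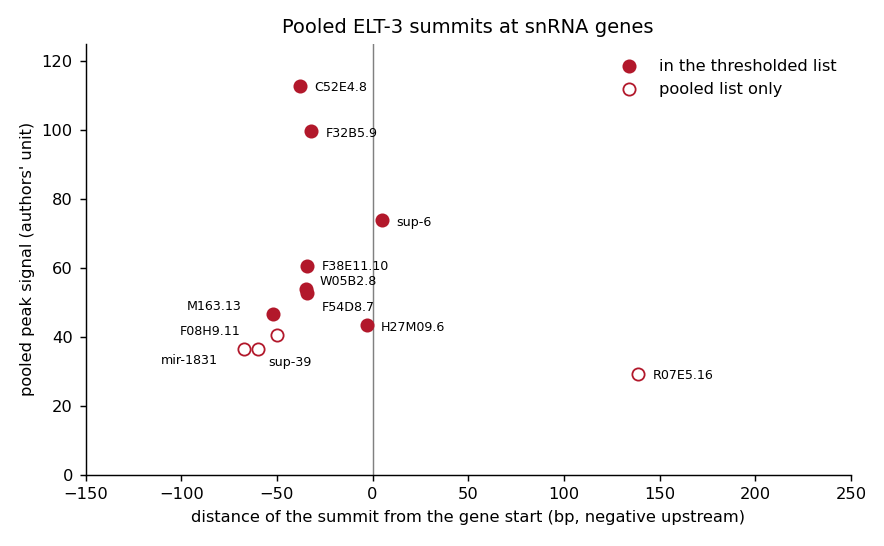
Pooled peak signal, in the authors' unit, against the distance in bp of the summit from the annotated start of the snRNA gene, with negative values upstream. Filled points are the 8 genes in the thresholded list, which lie between 52 bp upstream and 5 bp inside the gene, and open points are the 4 genes with a summit in the pooled list only.

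The signal of these peaks lay around the middle of the thresholded list. Its median was 57.2 over the 8 peaks and 56.3 over the whole thresholded list, the median rank was 611, and 4 of the 8 were above the list's median signal. The −log10 q-value the authors' caller gave them ran from 1.32 at H27M09.6 to 2.76 at C52E4.8 and F32B5.9. In replicate 2 all 8 were among that replicate's 1262 strongest peaks, and in replicate 1 this held for 5, without H27M09.6, F54D8.7 and M163.13. Both replicates thus ranked 5 of the 8 so high, against 737 of 1253 (58.8%) of all thresholded peaks with a peak in both replicates. Replicate summits were a median of 11.5 bp apart, from 2 to 61 bp, and 6 of 8 were at most 20 bp apart. Over all 1253 peaks the median was 17 bp, and 676 (54%) were at most 20 bp apart.

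**Figure D2:**
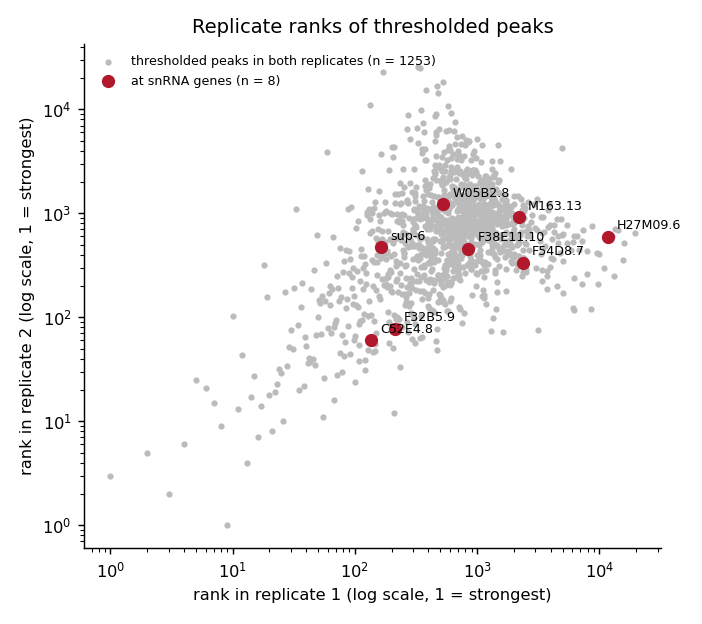
Rank by signal in replicate 1 against rank in replicate 2, both on log axes with rank 1 the strongest, for the 1253 thresholded peaks that overlap a peak in both replicates (grey) and the 8 at snRNA genes (red). C52E4.8 and F32B5.9 are strong in both replicates, while H27M09.6, at rank 11782 in replicate 1 and 597 in replicate 2, lies apart from the other 7.

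The lower part of the pooled list added 4 genes, for 12 of 99 (12.1%, interval 7.07% to 20%) on 11 distinct peaks. The background was 9.56% of all genes and 13.6% of all but the piRNA genes within 250 bp of the gene span, so the share in the pooled list is near the background. Gene spans differ in length, however, and within 250 bp of the gene start the same 12 snRNA genes compare with 6.36% of all genes but the piRNA genes, and the 8 thresholded genes with 2.0%. F08H9.11 (V:14468569-14468733, minus strand), with the U1 letters, had a pooled signal of 40.6, rank 1407 of 5659, and a summit 50 bp upstream. Replicate 1 gave 21.0, rank 1824, and replicate 2 gave 18.9, rank 1669, so this gene just below the threshold was close in strength in the 2 replicates. Another gene with the U1 letters, sup-39, known for mutations that suppress splice-site defects, had a pooled signal of 36.4, rank 1761, and a summit 60 bp upstream. Replicate 1 gave 12.3, rank 11737, and replicate 2 gave 19.8, rank 1473. The annotated snRNA gene mir-1831 lies inside sup-39 and shares its peak. R07E5.16, with the U6 letters, was the exception in position: its summit of signal 29.3 lay 139 bp inside the start, beyond the gene's 102 bp. Replicate 1 gave 22.0, rank 1585, with a summit 143 bp inside the start, and replicate 2 gave 8.78, rank 22240, with a summit 42 bp inside it, so the 2 replicates differed widely in rank and the peak rests on replicate 1.

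**Figure D3:**
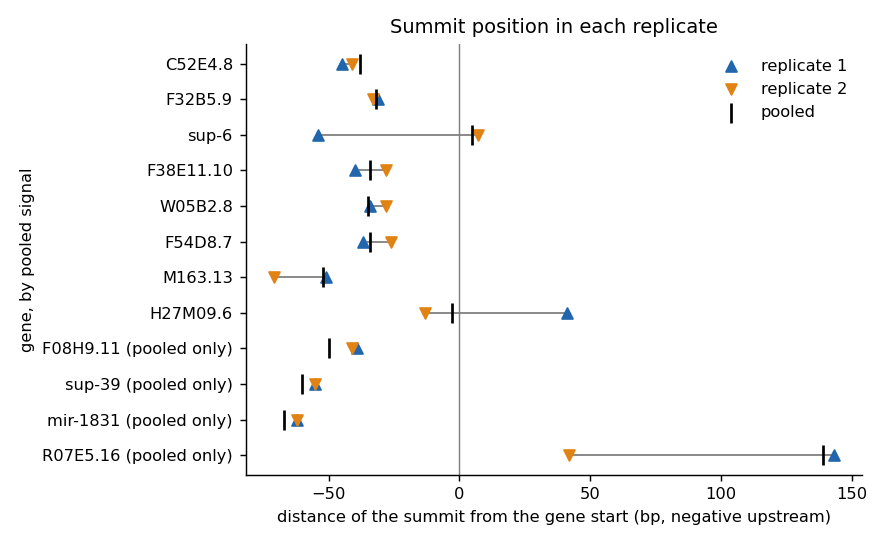
Distance in bp of each summit from the gene start in replicate 1, replicate 2 and the pooled list for the 12 snRNA genes with a pooled summit, ordered by pooled signal. Most genes have all 3 summits upstream of the start, while sup-6, H27M09.6 and R07E5.16 have summits of the replicates far apart or inside the gene.

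The position upstream of the start was shared by most of the peaks. Summits of 7 of the 8 thresholded peaks lay from 60 bp upstream to the start, so that 7.07% of all snRNA genes had a summit there, against 0.412% of all genes but the piRNA genes (130 of 31527). The interquartile range of the 8 distances was 11 bp. Spliced leader genes had 5 of 5 summits in the same stretch, at a median of 52 bp upstream, and snoRNA genes had 21 of 34 (61.8%), at a median of 37.5 bp upstream. At tRNA genes it was 3 of 19 (15.8%) with a median 30 bp inside the start. Of the thresholded summits within 250 bp of a protein-coding gene start, 17.4% were there. The 60 bp stretch was chosen after the positions were seen. Over the pooled list the median was 34.5 bp upstream. It was 40 bp upstream with the summits of replicate 1 and 28 bp upstream with those of replicate 2. In the pooled list 9 of 12 summits lay within 60 bp upstream and 10 within 70 bp. The peak shared by sup-39 and mir-1831 is counted for each of these genes.

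**Figure D4:**
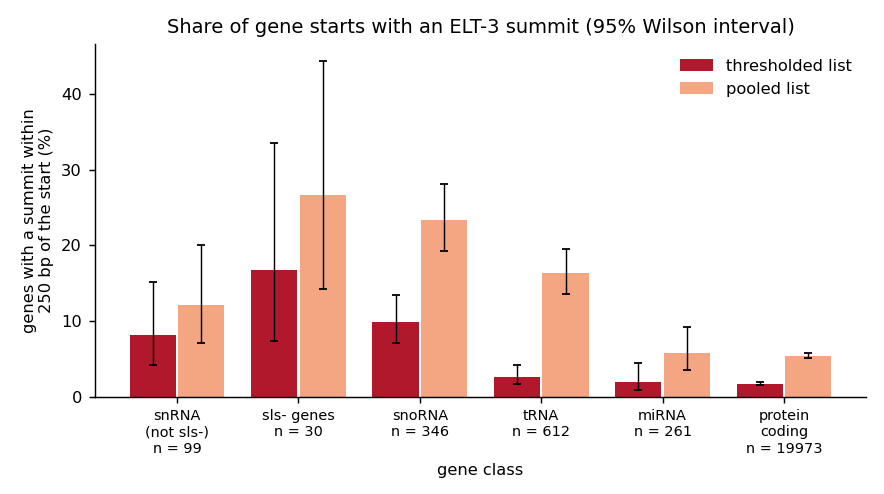
Share in % of annotated genes of each class with a summit within 250 bp of the gene start, in the thresholded list and the pooled list, with 95% Wilson intervals that cover counting error over genes only. snRNA genes stand at 8.08% in the thresholded list, between the spliced leader genes (16.7%) and snoRNA genes (9.83%) on one side and tRNA (2.61%), miRNA (1.92%) and protein-coding genes (1.7%) on the other.

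By gene class, the share of 8.08% in the thresholded list was below those of spliced leader genes (5 of 30, 16.7%) and snoRNA genes (34 of 346, 9.83%), and above those of tRNA (19 of 612, 3.1%), miRNA (6 of 261, 2.3%) and protein-coding genes (720 of 19973, 3.6%). The interval of the snRNA genes overlapped those of each of these classes but the protein-coding genes. These intervals treat genes as independent, while copies of a gene share sequence and are not, so overlap or its absence is no test. For the same reason no test was made between classes. In the pooled list, within 250 bp of the gene span, the order was different. There tRNA genes at 17.3% and protein-coding genes at 15.9% stood above the snRNA genes at 12.1%. So did snoRNA genes at 24.6% and spliced leader genes at 26.7%, while miRNA genes at 6.51% stood below. Within 250 bp of the gene start, protein-coding genes instead stood below, at 5.43% against 12.1% for the snRNA genes. The tRNA genes stayed above at 16.3%, and the other classes kept their side. The lists of single replicates, which include background peaks by the authors' design, had a summit at 24 snRNA genes in replicate 1 and 27 in replicate 2, of which 14 were in both. The background within 250 bp of the gene span was 44.2% and 45.3% of all genes but the piRNA genes, and within 250 bp of the gene start 17.1% and 18.2%, where the snRNA genes had 24.2% and 25.3%. Of the 99 genes, 62 had no summit in either replicate. Another 25 had one in a replicate list and none in the pooled list, at weak ranks with a median of 18730, and the strongest of them was B0213.24 with rank 3361 in replicate 1, 13 bp upstream of its start.

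Peaks were spread over the families. The family of 24 genes of 93 to 108 bp, 22 of them with the U6 letters, held 2 genes with thresholded peaks. The 13 genes of 156 to 170 bp, 12 of them with the U1 letters, held 2, and the 12 genes of 117 to 126 bp, 11 with the U5 letters, held 2. The family of 5 with C52E4.8 held 1, and M163.13 stood alone. No family thus had a thresholded peak at most of its genes. The 19 genes of 185 to 187 bp, 18 of them with GTAGTA, the letters by which U2 pairs with the branch point, had no summit in the thresholded or pooled list. In the replicate lists, summits were at 1 gene in replicate 1 and 5 in replicate 2, and 7 of these 19 genes have a unique upstream sequence. Neither the family of 9 smy genes (SmY RNAs) nor the family of 6 with B0213.24 and T10H4.16 had a thresholded or pooled summit within the window.

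**Figure D5:**
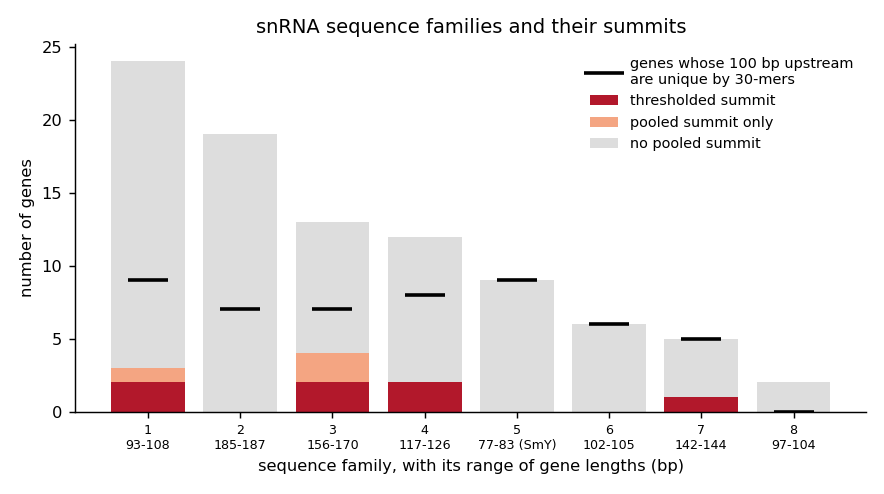
Number of snRNA genes in each of the 8 sequence families with 2 or more genes, split by whether a gene has a thresholded summit, a pooled summit only or neither, with a black bar at the number of genes whose 100 bp upstream hold no repeated 30-mer. Families 2 (U2 letters), 5 (smy genes), 6 and 8 have no pooled summit, and in families 1 to 4 many upstream regions are not unique.

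Of the 99 genes, 32 have an identical copy, among them C52E4.8, F38E11.10, W05B2.8 and F54D8.7, which had thresholded peaks. Every 30-base word of the 100 bp upstream occurs once in the genome for 60 genes, among them all 8 with thresholded peaks and 11 of the 12 with pooled peaks. Of the other 39 genes, none had a thresholded summit, 1 (R07E5.16) had a pooled summit, and 3 and 6 had summits in replicates 1 and 2. Whether reads with several matches were kept is not given in the sources used here, and the part of read mapping in the missing peaks was not tested. The relatives shown above were chosen for a unique upstream sequence. T11F9.15, with an RNA identical to that of C52E4.8 and a unique upstream sequence, had its nearest pooled summit 26557 bp away and its nearest replicate summit 700 bp away. F38E11.11, identical to F38E11.10, had its nearest pooled summit 10512 bp away and its nearest replicate summit 1444 bp away. For Y17G9A.85 and Y17G9A.90 the nearest replicate summits were 1387 and 3563 bp away. Another identical copy of W05B2.8 with a unique upstream sequence, Y9C9A.111, had weak summits in both replicates, 124 bp upstream at rank 19979 in replicate 1 and 29 bp upstream at rank 24718 in replicate 2. F40G12.13 had a summit 38 bp upstream in replicate 1 of signal 17.3, rank 3422, and none in replicate 2.

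The letters upstream of the starts were shared well beyond the genes with peaks. GCGNAANCC, read on the gene's strand in the 100 bp upstream, was present at 40 of 99 snRNA genes (40.4%), against 132 of 31527 (0.419%) genes but the piRNA genes and 34 of 19973 (0.17%) protein-coding genes. It began at a median of 62 bp upstream, from 75 to 57 bp. In the family with the U6 letters 5 of 24 genes had it, at 71 bp upstream. Overlapping genes were counted separately: sup-39 and mir-1831 share a match. So do T27E4.12 and T27E4.22, at 60 and 75 bp upstream. Of the 8 genes with thresholded peaks 6 had it, and so did 34 of the 91 others, among them T11F9.15, F38E11.11, Y17G9A.85 and Y17G9A.90 shown above. The most frequent words of 8 bases were CGGAACCC and GCGGAACC, each at 26 of 99 genes and at 4 of the 8. TGTCGGTA was at 18 genes, none of them with a thresholded or pooled summit. TATAA was at 22 genes (22.2%), near the 18.5% of all genes but the piRNA genes and the 21.3% of protein-coding genes. Of the 22, 17 were in the family with the U6 letters, where it lay at a median of 29 bp upstream. ATGTC was at 36 genes, 6 of them among the 8, and at 6.61% of all genes but the piRNA genes.

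At the summits themselves, GCGNAANCC lay within 50 bp on either strand in 6 of 8 snRNA peaks (75%), in 2 of 5 spliced leader peaks and in 16 of 1249 (1.28%) of the other thresholded peaks. Control windows 500 bp to the left and right of the 8 summits held none. Since the letters were chosen from these start regions, the count is a description. The 6 genes with the letters upstream on the gene's strand are not all the same as these 6 peaks. At sup-6 the upstream match lies outside the 50 bp window. The summit lay downstream of the first base of the upstream GCGNAANCC by 25 bp at C52E4.8, 28 bp at F32B5.9 and 29 bp at F38E11.10. It was 36 bp at W05B2.8, 37 bp at F54D8.7 and 65 bp at sup-6. At 5 of the 6 genes with the upstream match the summit was therefore between the match and the gene start. WGATAR was at 0 of 8 summits within 50 bp (exact 95% interval up to 36.9%) and at 0 of 8 within 100 bp, against 67.8% of the other peaks within 100 bp. GATA alone was within 50 bp of 1 of 8 (12.5%), against 68.7%, and within 100 bp of 4 of 8 (Wilson interval 21.5% to 78.5%), against 86.4%. Windows 500 bp to the left and right of the 8 summits also held no WGATAR, against 22.9% and 19.2% for the other peaks, and WGATAR was in the 100 bp upstream of 8 of 99 snRNA genes (8.08%), against 23.6% of all genes but the piRNA genes. What the absence of these letters means for the protein that the DNA there contacts was not tested.

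The surroundings of the peaks were varied. Of the 99 genes 56 lie inside a protein-coding gene, and of the 8 with thresholded peaks 3 do, sup-6 within F58G1.7 and W05B2.8 within dhc-4 on the same strand and F32B5.9 within cpz-1, without touching an exon. The summits at C52E4.8, F38E11.10, F54D8.7 and H27M09.6 lay in a protein-coding promoter window, those of F38E11.10 and F54D8.7 being 568 bp and 792 bp from the starts of F38E11.9 and cox-6A, a subunit gene of cytochrome c oxidase. The summits of sup-6, W05B2.8 and M163.13 lay more than 1000 bp from any protein-coding start. Between the genes just inside and just outside the limit of 250 bp there was a wide gap: the farthest summit inside was that of M163.13, 52 bp from the gene, and the nearest outside was 258 bp upstream of T10H4.16, with a signal of 88.4 and rank 155. Next came a peak 272 bp beyond smy-1 (signal 55.2) and one 442 bp upstream of smy-4 (signal 61.6).

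Genes for proteins that make or carry snRNAs were examined from a list of 57, of which 51 matched the annotation. A thresholded summit lay in the promoter window of 3 of the 51, while 3.76% of all protein-coding genes (750 of 19973) had one, and of 8 of 51 in the pooled list, where the background was 12.2%. The 3 were snr-4, whose peak is that of C52E4.8, prp-8 and ints-4. At prp-8, the large U5 protein at the heart of the spliceosome, the summit lay 310 bp upstream with a signal of 64.8, and replicates 1 and 2 gave 33.3 and 33.9. At ints-4, a subunit of the Integrator complex that cuts snRNA 3′ ends, it lay 57 bp inside the start with a signal of 53.1, and the replicates gave 22.8 and 30.3. The pooled list added ints-2, ints-3, snr-6, lsm-3 and gut-2, with signals from 25.1 to 41.1. None of the 7 matched SNAPc subunits, of the TATA-binding protein and Pol III factor genes (0 of 2) or of the 2 matched snRNP assembly genes had a summit in either list. The shares of the list are close to the background of all protein-coding genes.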

How the data were processed

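ELT-3 ChIP-seq peak lists of 2 biological replicates of 1 group were used. Per the labels' file lists, the authors called peaks separately on the alignments of each replicate and of both pooled, against control alignments. They kept the reproducible part of the pooled list as the thresholded list. All 8 peaks at snRNA genes had the same rank by signal in both lists, down to rank 1231 at H27M09.6. A place in the thresholded list thus does not show that a peak was similar in both replicates. H27M09.6, rank 11782 in replicate 1, was in it, and F08H9.11, ranks 1824 and 1669, was not. No aligner or peak caller is named in the sources used here. The deposited lists hold the authors' signal per peak, of unstated scale, and the −log10 of a q-value. Read depth is unknown, and intervals cover only the counting error of genes or peaks.

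The ce11 lists were used with the Ensembl release 115 annotation of WBcel235 and RefSeq sequence of the same build. Coordinates are 1-based. Ensembl repeats symbols over several snRNA genes (74 distinct symbols for 99 genes), so RefSeq names, matched for 99 of 99 by WormBase ID, are printed. A summit was assigned to a gene when within 250 bp of its span, and a replicate's value is its strongest peak overlapping the pooled peak by at least 1 bp. Ranks are by signal within a list, and signals of different lists need not share a scale. Named genes are all with a thresholded or pooled summit, those nearest the 250 bp limit, the closest relatives without a peak and, of the proteins, those with a peak. The assignment was tested on simulated data. With no second group, no test between conditions was possible, and none was made between gene classes.

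The members and lists were chosen with earlier results of these data known. The tools were Python 3.11.15 with biopython 1.88, numpy 2.4.6, matplotlib 3.10.9, pandas 2.3.3 and scipy 1.17.1. The ce10 lists and the control were not used here.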

Additional observations from a re-analysis of the deposited data

How the results depend on the processing

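The count of 8 snRNA genes with a thresholded summit was 4 with peaks above the list's median signal and 3 over summits more than 1000 bp from protein-coding starts, both by construction fewer peaks. With the strongest peaks of a single replicate in place of the thresholded list, as many as that list holds, it ran from 5 to 8, the lower value from replicate 1 alone. Of the 51 machinery genes, 3 had a thresholded and 8 a pooled summit. Windows of 100 or 500 bp, any overlap of the peak and windows with unique 30-base words left the count between 8 and 11, and 7 lay within 60 bp upstream; the last choice and the unique upstream words were added after seeing the data. The pooled count ran from 11 to 16, the median distance from 40 to 28 bp upstream, and WGATAR stayed at 0 in each list and window, with 12.5% for GATA. In all, 28 of 32 alternative values were classed as unmoved. That class took in changes from 8 to 11 thresholded and from 12 to 16 pooled genes. A fall from 8 to 5 was classed as moved, so the tally is a rough guide only. No paired analysis was possible because there is 1 group. Read depth and the handling of reads with several matches are unknown, and the control was not analysed here.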

Other observations

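The other thresholded peaks with GCGNAANCC within 50 bp of the summit numbered 16. Of these, 6 had the start of a gene annotated as snoRNA within 60 bp downstream of the summit, F59C6.15, smy-2, ZK994.7, K02C4.7, C16D9.11 and C07A9.14, and 10 had no annotated start there. smy-2 carries the name of an SmY RNA and is annotated as snoRNA, so it is not counted among the 99 genes. Its peak, with a signal of 55.2 and rank 673, is the one 272 bp beyond smy-1.

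Split by GCGNAANCC in the 100 bp upstream, 6 of 40 snRNA genes with the letters had a thresholded summit (15.0%) and 2 of 59 without them (3.39%). Overlapping genes that share a match were again counted separately. Over all genes but the piRNA genes, the snRNA genes included, the split was similar, at 18 of 132 (13.6%) and 1027 of 31395 (3.27%). For snoRNA genes it was 8 of 24 (33.3%) and 26 of 322 (8.07%), and for spliced leader genes 2 of 6 (33.3%) and 3 of 24 (12.5%). Of 34 protein-coding genes with the letters 1 had a summit (2.94%), near the 3.61% of those without. For genes annotated as ncRNA it was 1 of 23 (4.35%) and 234 of 7741 (3.02%). Of the 39 snRNA genes whose upstream sequence is not unique, 0 had a thresholded summit. Such genes are a smaller share of the snRNA genes with the letters than of those without. The part of this in the contrast was not tested. These counts use letters chosen from the snRNA genes and carry no test.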
